A study of Mus musculus with 8 samples.

Results

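The genes described here are 56 mitosis and kinetochore genes, a set picked by symbol for roles in the G2/M phase, the spindle, the kinetochore and cytokinesis. All 56 were listed in each of the 3 deposited expression tables, which share 15142 genes. RNA-seq had been performed on hematopoietic stem cells (HSCs) of wild-type (WT) C57BL/6 mice, 8 to 12 weeks old and of both sexes. The 8 libraries were 3 of bone marrow HSCs from mice labelled as given PBS and called untreated in the study's text (control BM HSCs), 3 of bone marrow HSCs from mice given phenylhydrazine (PHZ BM HSCs) and 2 of splenic HSCs from mice given phenylhydrazine (PHZ SP HSCs). Phenylhydrazine (PHZ) lyses erythrocytes and thereby makes mice anemic. It was injected into the peritoneum at 60 mg/kg on each of 2 days. HSCs were sorted 3 days after the last injection as lineage-, Sca-1+, c-kit+, CD150+ cells with no or low CD48. The lineage markers named by the study for HSC sorting were Ter119, B220, Gr-1, CD2, CD3 and CD8. Splenic HSCs of mice without PHZ were not analysed here, so organ and treatment cannot be told apart in a comparison of PHZ SP HSCs with control BM HSCs. Whether each library came from 1 mouse or from a pool is not given in the sources used here. Every p-value therefore measures the spread between libraries, which may be technical.

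Mitosis begins when CDK1, bound to cyclin A or cyclin B, drives chromosome condensation and the building of the spindle. Kinetochores, the protein assemblies on centromeric chromatin, attach the chromosomes to spindle microtubules, and the spindle checkpoint delays anaphase until all are attached. Then the anaphase-promoting complex has cyclin B and securin degraded and the cell is cut in 2 by cytokinesis. Most genes of these steps are transcribed late in the cell cycle and are low in resting cells. Adult HSCs are known as mostly quiescent, and the summed level of these transcripts in a population of HSCs is commonly used as a readout of dividing cells.

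Levels are given as FPKM, a read density corrected for the length of the transcript and the depth of the library, which allows genes of different length to be compared. Each library held 8216626 to 13201359 reads, of which 43.3% to 48.6% belonged to the ribosomal RNA gene Rn45s, and 11410 to 12271 genes had at least 10 reads. The 15 HSC marker genes, among them Kit, Ly6a (Sca-1), Slamf1 (CD150) and Procr, were all detected in every library, with summed levels of 548 to 679 FPKM in control BM HSCs, 628 to 741 in PHZ BM HSCs and 682 to 690 in PHZ SP HSCs. Of all pairs of libraries within a group, replicates 1 and 2 of the PHZ BM HSCs were most alike (Pearson's r = 0.976 across genes). The other pairs were at 0.903 to 0.958. No member had 0 reads in any library and 48 of 56 had at least 10 reads in all 8. The lowest counts were 4 reads, for Bub1 in PHZ BM HSC replicate 1 and for Cdc25c in replicate 3, so the levels of the rarest transcripts in PHZ BM HSCs rest on few reads.

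Mitosis and kinetochore genes were lowest in the PHZ BM HSCs. The group mean was lowest in PHZ BM HSCs for 56 of 56 members, and highest in control BM HSCs for 42 and in PHZ SP HSCs for 14. The mean of log2(FPKM + 1) over the 56 members was 3.17, 2.71 and 3.49 in the 3 control BM HSC libraries, 1.22, 1.46 and 1.77 in the 3 PHZ BM HSC libraries and 2.76 and 3.06 in the 2 PHZ SP HSC libraries. Every PHZ BM HSC library lay below the other 5. The PHZ SP HSC libraries lay within the range of the controls on this scale, replicate 1 close to the lowest of them. With a pseudocount of 0.1 in place of 1, PHZ SP HSC replicate 1 (2.399) was just below the lowest control (2.407). Replicate 1 was also below every control in 4 of the 8 role groups of the members (cyclins, checkpoint and anaphase, chromosome structure, and spindle). The FPKM of the 56 genes summed to 434 to 785 in control BM HSCs, 107 to 184 in PHZ BM HSCs and 474 to 550 in PHZ SP HSCs. In sorted cell populations, fewer dividing cells and less of these RNAs per cell cannot be told apart. The study reported that PHZ raised incorporation of BrdU, a label of newly made DNA, in splenic but not in bone marrow HSCs. Its relation to these RNA levels was not tested. For 45 of 56 members every PHZ BM HSC library was below every other library, which held for 4.86% of all 11347 genes tested.

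**Figure D1:**
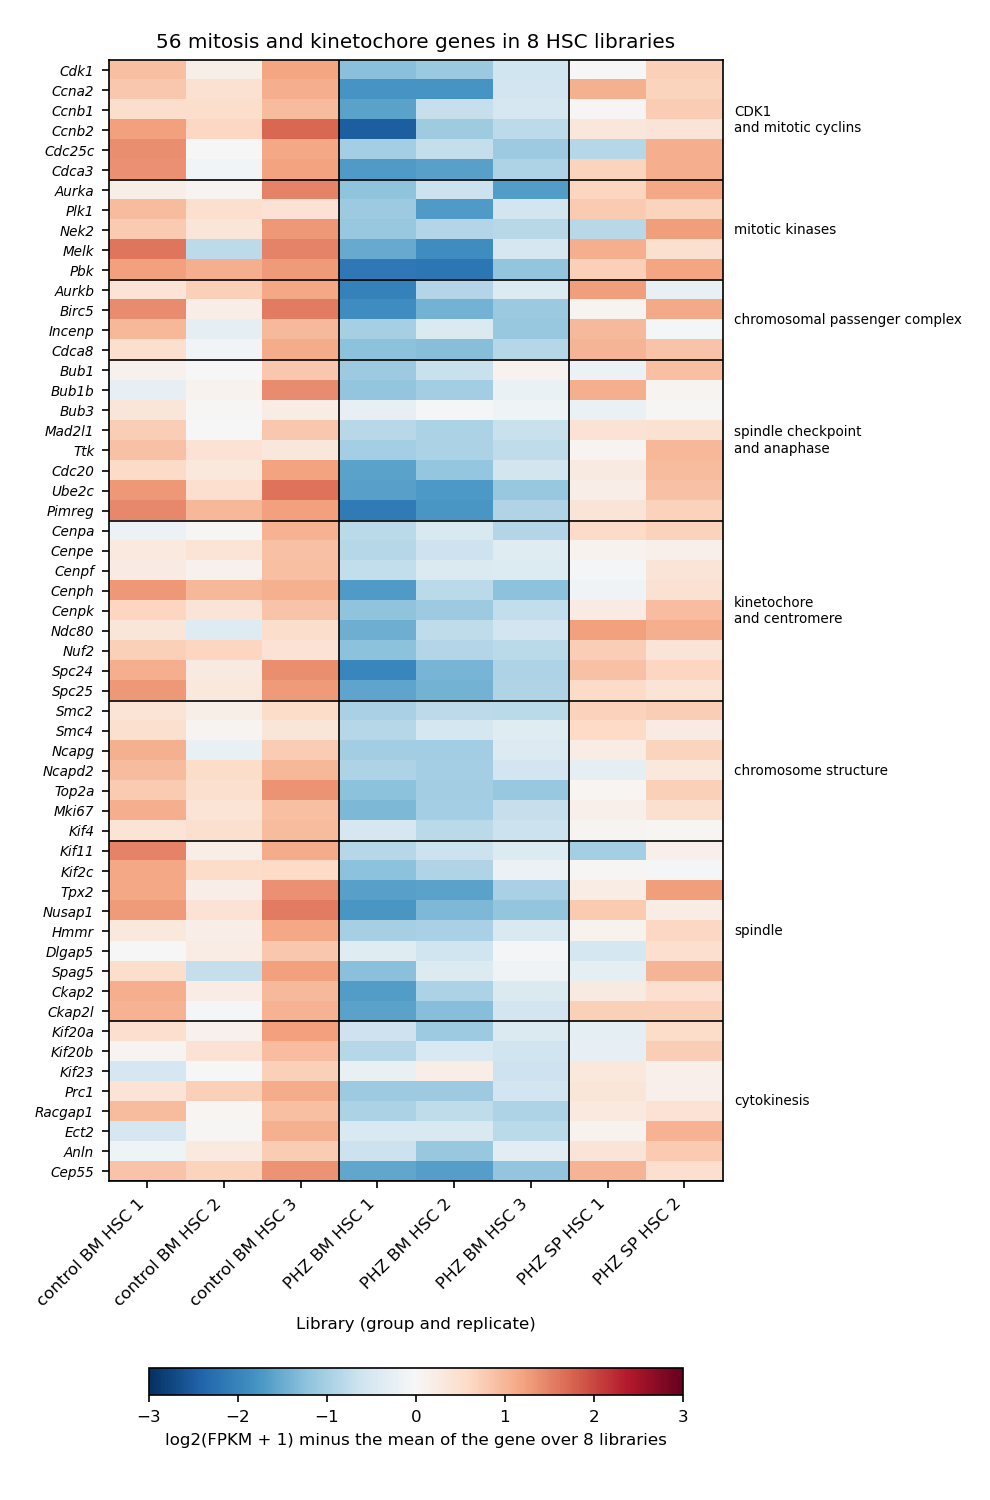
Level of each of the 56 genes (rows, grouped by role) in each of the 8 libraries (columns), as log2(FPKM + 1) minus the gene's mean over the 8 libraries; blue is below and red above that mean. The 3 PHZ BM HSC columns are blue for nearly all genes, with Kif23 in replicate 2 and Bub1 in replicate 3 among the fields that are not.

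The members were compared between groups with limma on log2(FPKM + 1), adjusted by the Benjamini-Hochberg method over all 11347 genes with at least 1 FPKM in at least 2 libraries. A gene is called here when its adjusted p was below 0.05. Differences are on this log2 scale, which understates the change of genes with low FPKM. All 56 members passed the filter on FPKM, although only 27 reached 1 FPKM in every PHZ BM HSC library, against 54 in the control BM HSC libraries and 52 in the PHZ SP HSC libraries. Compared to control BM HSCs, PHZ BM HSCs had lower levels of all 56 members, and 35 fell past the threshold. Of all genes tested 2.74% were called, 1.26% lower and 1.48% higher. The median difference of the members was -1.63, and that of all genes tested was 0.01. Differences ranged from -3.03 for Pbk to -0.29 for Kif23. In 50 of 56 members the 2 groups did not overlap with PHZ BM HSCs lower, which held for 11.7% of all genes tested. The number called was 20 without replicate 1 of the PHZ BM HSCs, 22 without their replicate 2 and 21 when these 2 libraries were averaged into 1 sample. A set of 20 members was called in every fit that left out 1 library: Birc5, Ccna2, Ccnb2, Cdc20, Cdca3, Cenph, Cenpk, Cep55, Mki67, Ncapd2, Nuf2, Nusap1, Pbk, Pimreg, Plk1, Spc24, Spc25, Top2a, Tpx2 and Ube2c.

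In PHZ SP HSCs all 56 members had higher levels than in PHZ BM HSCs, and 19 rose past the threshold. Of all genes tested 0.978% were called, and 0.608% were higher in PHZ SP HSCs. The median difference was 1.37 for the members and -0.02 for all genes tested, and the range was 0.05 for Bub3 to 2.78 for Pbk. The 2 groups did not overlap in 48 members, with PHZ SP HSCs higher, compared with 17.4% of all genes tested. These calls rested on few libraries. Leaving out PHZ SP HSC replicate 1 left 1 call (Pbk), and leaving out the other splenic library left 0. Leaving out replicate 1 of the PHZ BM HSCs left 2 and leaving out their replicate 2 left 3, and 2 were called when both were averaged. Fewer were also called by voom on the read counts recovered from the FPKM (10) and without a filter on low values (6). Both comparisons use the same 3 PHZ BM HSC libraries, so their results are not independent. In all, 18 members were called in both, 17 against control BM HSCs alone, 1 (Ndc80) against PHZ SP HSCs alone and 20 in neither. Whether both differences of a member were of unequal size was not tested.

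Markers of other cells were measured in the same libraries. The 15 erythroid markers listed had summed levels of 608 to 761 FPKM in control BM HSCs, 584 to 727 in PHZ BM HSCs and 1512 to 1651 in PHZ SP HSCs. Of 14 tested, 7 rose in PHZ SP HSCs compared to control BM HSCs and 2 compared to PHZ BM HSCs. In PHZ BM HSCs compared to control BM HSCs, 0 were called. In these 3 comparisons 12, 11 and 4 had an unadjusted p below 0.05, against 15.8%, 13.5% and 16.6% of all genes tested. All 14 were higher in PHZ SP HSCs than in each marrow group. No erythroid marker was at 0 in any PHZ BM or PHZ SP HSC library. The 13 myeloid progenitor and neutrophil markers summed to 431 to 741, 511 to 1063 and 1418 to 1811 FPKM in the same order, with 1 (Ctsg) at 0 in all 3 control libraries. Of 12 tested 1 (S100a8) rose in PHZ SP HSCs compared to each marrow group. In PHZ BM HSCs compared to control BM HSCs 1 (Prtn3) rose. In PHZ SP HSCs, 7 had an unadjusted p below 0.05 compared to control BM HSCs and 8 compared to PHZ BM HSCs. Between the marrow groups there were 6. In PHZ SP HSCs 12 of 12 were higher than in control BM HSCs and 10 of 12 higher than in PHZ BM HSCs. Voom called 2, 1 and 1 in these 3 comparisons, the marrow groups last. Markers of B cells summed to 29.8 to 51.5 FPKM in control BM HSCs, 29.7 to 32.5 in PHZ BM HSCs and 50.5 to 57.7 in PHZ SP HSCs. Of 5 tested, 5 were higher in PHZ SP HSCs than in each marrow group, where limma and voom called 0 and 3 had an unadjusted p below 0.05. Markers of T and NK cells summed to 23.6 to 67.2, 36.7 to 53.9 and 57.7 to 58.9 FPKM in the same order, and 1 of 3 tested (Klrb1c) rose in PHZ SP HSCs compared to each marrow group. Macrophage and dendritic cell markers, with Lyz2 the most abundant, summed to 251 to 286 FPKM in control BM HSCs, 202 to 258 in PHZ BM HSCs and 350 in both PHZ SP HSC libraries. Limma and voom called 0 of 5 tested in the 3 comparisons, with at most 3 at an unadjusted p below 0.05. Mast cell and basophil markers summed to 0.3003 to 7.32 FPKM. Megakaryocyte markers summed to 197 to 287 FPKM, and limma called 2 of 7 tested (Pf4 and Ppbp) lower in PHZ BM HSCs than in control BM HSCs, where voom called 1. The part of such cells in the higher levels of mitosis genes in PHZ SP HSCs compared to PHZ BM HSCs was not tested. Between the 2 marrow groups, the ranges of the summed erythroid, myeloid and HSC markers overlapped. Such sums are led by the most abundant genes. Of those tested, 12 of 14 erythroid, 8 of 12 myeloid and 9 of 15 HSC markers were higher in PHZ BM HSCs. Among the 15 HSC markers, limma called 1 (Gata2) higher in PHZ BM HSCs than in control BM HSCs, and 0 in PHZ SP HSCs compared to either marrow group. In PHZ SP HSCs 7 had an unadjusted p below 0.05 and voom called 1 compared to control BM HSCs, and 4 and 0 compared to PHZ BM HSCs. Immediate early genes (such as Fos and Egr1, which respond within minutes to many stimuli) moved the other way. Their summed level was 157 to 209 FPKM in control BM HSCs, 1064 to 1218 in PHZ BM HSCs and 380 to 386 in PHZ SP HSCs. Of 15 tested, 12 rose in PHZ BM HSCs compared to control BM HSCs, and any relation to the mitosis genes was not tested.

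**Figure D2:**
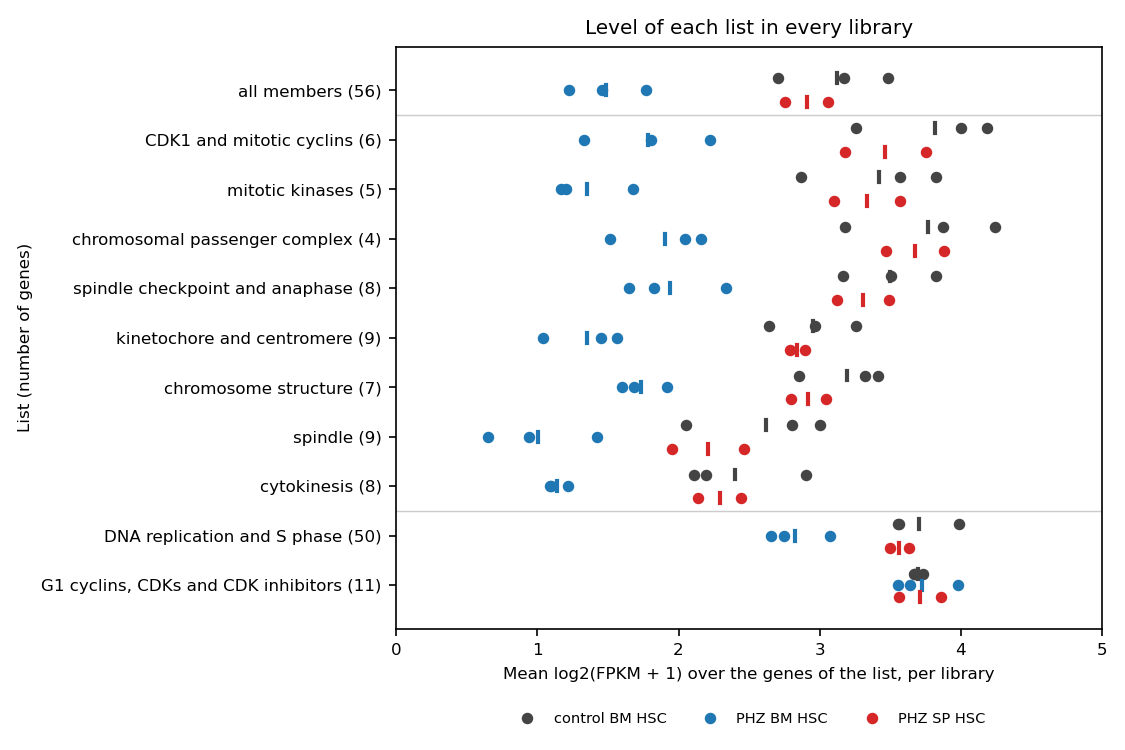
Mean log2(FPKM + 1) over the genes of a list (x axis) in each library (points) with the group mean (vertical bars), for all 56 genes, their 8 role groups and, for comparison, S phase and G1 lists. In every role group the 3 PHZ BM HSC points lie left of the other 5, and in the G1 list the 3 groups overlap.

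Promoters of mitosis genes commonly carry the cell cycle genes homology region (CHR), to which the MuvB complexes bind, and CCAAT boxes, bound by NF-Y. RefSeq sequences reaching from 250 bases before to 50 after the transcription start (GRCm38.p6) were found for 45 of the 56 members, in 51 windows. The letters TTTGAA or TTCGAA, counted here as a CHR on either strand (TTCAAA being TTTGAA on the other strand), occurred in 76.5% of these windows, compared with 14.3% of the 11479 windows of genes tested and 19.2% of all 32851 windows. CCAAT, or ATTGG on the other strand, occurred in 78.4%, compared with 38.3% of windows of genes tested and 37.4% of all windows. Both were present in 64.7% of members' windows, against 5.89% and 7.52%, and 1 match of one motif overlapped a match of the other (in Cdca8). Of 52 CHR matches 75% lay from 100 bases before to 50 after the start, as did 67.8% of 87 CCAAT matches. That stretch is a large part of each window, and its share of matches was not computed for all genes tested. Windows of the same gene can overlap, so a match may be counted more than once. The CHR letters were present in 23 of the 33 windows of members that fell in PHZ BM HSCs compared to control BM HSCs and in 16 of the 18 windows of members not called. A match of letters is not a binding site, and Birc5, Mad2l1, Melk, Nuf2 and Nusap1 had neither motif in the window.

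Sequences from 170 bases before to 30 after the start are printed for 6 members that fell in PHZ BM HSCs, 1 or 2 each from the cyclin, anaphase, kinetochore and chromosome structure groups, and for Bub3 and Kif23, the 2 members with the smallest difference between PHZ BM HSCs and control BM HSCs; they were chosen after the values were seen. They run 5′ to 3′ on the strand of the gene, and capitals mark the CHR and CCAAT letters on either strand.
Cdk1 (chr10:69352883-69353082, minus strand): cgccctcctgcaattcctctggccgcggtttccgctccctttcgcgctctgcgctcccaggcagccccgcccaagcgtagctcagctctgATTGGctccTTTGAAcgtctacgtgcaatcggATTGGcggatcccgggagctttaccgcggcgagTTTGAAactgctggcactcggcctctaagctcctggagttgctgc
Ccnb2 (chr9:70421525-70421724, minus strand): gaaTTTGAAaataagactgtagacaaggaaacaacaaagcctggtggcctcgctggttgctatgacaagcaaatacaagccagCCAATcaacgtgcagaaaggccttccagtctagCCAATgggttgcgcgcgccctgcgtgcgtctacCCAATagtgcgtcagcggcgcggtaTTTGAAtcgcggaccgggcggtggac
Ube2c (chr2:164769759-164769958, plus strand): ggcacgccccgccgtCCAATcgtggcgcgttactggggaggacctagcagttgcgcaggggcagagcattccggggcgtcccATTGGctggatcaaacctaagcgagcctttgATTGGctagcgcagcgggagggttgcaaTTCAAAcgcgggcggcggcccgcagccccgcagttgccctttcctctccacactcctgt
Cdc20 (chr4:118437314-118437513, minus strand): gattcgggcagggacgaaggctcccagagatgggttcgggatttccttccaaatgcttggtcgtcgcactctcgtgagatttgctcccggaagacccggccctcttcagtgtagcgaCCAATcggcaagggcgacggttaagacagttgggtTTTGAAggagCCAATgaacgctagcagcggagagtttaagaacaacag
Top2a (chr11:99024160-99024359, minus strand): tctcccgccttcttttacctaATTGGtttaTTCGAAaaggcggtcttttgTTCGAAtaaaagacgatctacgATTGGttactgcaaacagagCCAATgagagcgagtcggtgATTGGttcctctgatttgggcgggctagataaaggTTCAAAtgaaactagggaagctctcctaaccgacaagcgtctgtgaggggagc
Spc25 (chr2:69206184-69206383, minus strand): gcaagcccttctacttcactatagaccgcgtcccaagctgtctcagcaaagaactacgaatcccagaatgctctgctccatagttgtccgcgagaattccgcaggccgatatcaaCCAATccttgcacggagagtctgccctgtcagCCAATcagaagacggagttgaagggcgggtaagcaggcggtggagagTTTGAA
Bub3 (chr7:131560200-131560399, plus strand): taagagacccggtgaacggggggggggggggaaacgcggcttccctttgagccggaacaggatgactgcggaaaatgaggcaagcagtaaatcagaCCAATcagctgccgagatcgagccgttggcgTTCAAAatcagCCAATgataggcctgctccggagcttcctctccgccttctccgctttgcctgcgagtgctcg
Kif23 (chr9:61946770-61946969, minus strand): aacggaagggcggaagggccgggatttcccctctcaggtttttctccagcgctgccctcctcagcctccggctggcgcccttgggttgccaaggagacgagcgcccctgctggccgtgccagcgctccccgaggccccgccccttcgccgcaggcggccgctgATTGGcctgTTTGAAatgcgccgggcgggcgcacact
Both kinds of letters were thus present in the windows printed for Bub3 and Kif23, as in those printed for the other 6, which were picked and do not stand for all members that fell.

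CDK1 and the mitotic cyclins, the engine of mitotic entry, fell in PHZ BM HSCs in 5 of 6 members, with a median difference of -1.97. Ccnb2, which encodes cyclin B2, was at 47.4, 30.6 and 66.9 FPKM in the control libraries, 2.68, 8.83 and 10.9 in PHZ BM HSCs and 25.1 and 25.9 in PHZ SP HSCs. It fell by 2.64 ± 0.40 (SE; adjusted p = 0.00572) compared to control BM HSCs. The PHZ SP HSC libraries lay between the marrow groups (difference from PHZ BM HSCs 1.81, adjusted p = 0.0848). Ccna2 (cyclin A2) was at 16.5, 12.7 and 20.2 FPKM in control BM HSCs, 1.92, 1.903 and 5.72 in PHZ BM HSCs and 19.9 and 14.7 in PHZ SP HSCs. It fell by 2.16 ± 0.33 (adjusted p = 0.00574) in PHZ BM HSCs and was 2.24 ± 0.36 higher in PHZ SP HSCs (adjusted p = 0.0198). Cdca3, whose product helps to degrade the CDK1 inhibitor WEE1, was at 22.5, 7.68 and 20.03 FPKM in the control libraries, 1.83, 1.93 and 3.83 in PHZ BM HSCs and 13.4 and 18.4 in PHZ SP HSCs. Its differences were -2.25 (adjusted p = 0.008096) and 2.29 (adjusted p = 0.0268) in the same 2 comparisons. In these 3 genes no PHZ BM HSC library reached any other library. Cdk1 itself (difference -1.74, adjusted p = 0.0117) and Ccnb1 (-1.61, adjusted p = 0.0237) fell too, and neither was called in PHZ SP HSCs compared to PHZ BM HSCs. The exception was Cdc25c, the phosphatase that activates CDK1, at 5.13, 1.37 and 4.25 FPKM in control BM HSCs, 0.164, 0.439 and 0.106 in PHZ BM HSCs and 0.307 and 4.03 in PHZ SP HSCs. PHZ SP HSC replicate 1 was as low as the PHZ BM HSCs, with 10 reads against 122 in replicate 2, and control replicate 2 was lower than the other controls. The differences were -1.79 (adjusted p = 0.0845) and 1.06 (adjusted p = 0.433).

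Among the 5 mitotic kinases, 3 fell in PHZ BM HSCs and 2 rose in PHZ SP HSCs compared to PHZ BM HSCs. Pbk, a mitotic serine/threonine kinase, had the largest difference of all 56 members in both comparisons, at 37.2, 33.7 and 38.9 FPKM in the control libraries, 2.72, 2.61 and 6.26 in PHZ BM HSCs and 25.9 and 36 in PHZ SP HSCs. Its group means were 36.6 ± 2.69 FPKM (SD, n = 3), 3.86 ± 2.08 (n = 3) and 30.96 ± 7.13 (n = 2). The difference was -3.03 ± 0.27 in PHZ BM HSCs compared to control BM HSCs (adjusted p = 0.000281) and 2.78 ± 0.30 in PHZ SP HSCs compared to PHZ BM HSCs (adjusted p = 0.00389), an 8.15-fold and a 6.86-fold change on the log2(FPKM + 1) scale. Plk1, the polo-like kinase needed for centrosome maturation and spindle assembly, was at 14.7, 10.5 and 10.01 FPKM in control BM HSCs, 2.78, 1.5 and 4.502 in PHZ BM HSCs and 12.97 and 11.9 in PHZ SP HSCs. It fell by 1.75 (adjusted p = 0.00834) and was 1.85 higher in PHZ SP HSCs (adjusted p = 0.0268), again with no PHZ BM HSC library within the range of the other 5. Aurka, the Aurora A kinase of the centrosome and spindle poles, was at 5.29, 4.94 and 14.7 FPKM in the control libraries, 1.43, 2.57 and 0.764 in PHZ BM HSCs and 7.74 and 11.5 in PHZ SP HSCs. It fell by 1.75 (adjusted p = 0.0368). Its difference of 2.07 between the 2 PHZ groups was not called (adjusted p = 0.0529). Nek2, a centrosomal kinase, was at 3.62, 2.47 and 5.61 FPKM in control BM HSCs, 0.232, 0.471 and 0.531 in PHZ BM HSCs and 0.515 and 5.405 in PHZ SP HSCs. The 2 PHZ SP HSC libraries differed, with replicate 1 at the level of the PHZ BM HSCs (adjusted p = 0.0733 against control BM HSCs). Melk was at 12.5, 1.56 and 11.4 FPKM in the control libraries, 0.546, 0.215 and 2.11 in PHZ BM HSCs and 8.33 and 5.14 in PHZ SP HSCs. Here control BM HSC replicate 2 fell below PHZ BM HSC replicate 3, and a difference of -2.07 was not called (adjusted p = 0.0873).

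The chromosomal passenger complex, made of Aurora B, INCENP, survivin and borealin, corrects faulty attachments at the centromere and later acts at the midzone. Birc5 (survivin) was at 24.9, 10.1 and 27.4 FPKM in control BM HSCs, 1.65, 2.63 and 3.43 in PHZ BM HSCs and 9.23 and 20.2 in PHZ SP HSCs. It fell by 2.53 ± 0.38 (adjusted p = 0.005897). Cdca8 (borealin) was at 9.23, 5.87 and 14.8 FPKM in the control libraries, 2.12, 2.01 and 3.03 in PHZ BM HSCs and 13.9 and 12.3 in PHZ SP HSCs. It fell by 1.62 (adjusted p = 0.0135) and rose by 2.07 in PHZ SP HSCs compared to PHZ BM HSCs (adjusted p = 0.0162), the only call of the complex in that comparison. Aurkb, its kinase, was at 10.7, 13.5 and 18.5 FPKM in control BM HSCs, 1.15, 3.77 and 5.58 in PHZ BM HSCs and 20.1 and 6.53 in PHZ SP HSCs. All 3 PHZ BM HSC libraries were below the other 5, but replicates spread widely in each PHZ group, and the difference of -1.87 ± 0.44 just missed the threshold of 0.05 (adjusted p = 0.05004). Incenp, the scaffold, was at 13.97, 5.08 and 13.6 FPKM in the control libraries, 2.73, 4.55 and 2.39 in PHZ BM HSCs and 13.7 and 6.19 in PHZ SP HSCs. Control replicate 2 was close to PHZ BM HSC replicate 2, and the difference was -1.42 (adjusted p = 0.0845). In all 4 members the 2 marrow groups did not overlap.

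Of 8 genes of the spindle checkpoint and anaphase, 5 fell in PHZ BM HSCs and 3 rose in PHZ SP HSCs compared to PHZ BM HSCs. The 3 called in both were Pimreg, Ube2c and Cdc20. Ube2c, which encodes the ubiquitin-conjugating enzyme of the anaphase-promoting complex, was at 33.9, 19.01 and 42.6 FPKM in control BM HSCs, 3.56, 3.32 and 5.44 in PHZ BM HSCs and 15.4 and 25.3 in PHZ SP HSCs. Its group means were 31.8 ± 11.9 (SD, n = 3), 4.11 ± 1.17 (n = 3) and 20.3 ± 7.005 (n = 2) FPKM. Its differences were -2.64 ± 0.30 (adjusted p = 0.00134) and 2.05 ± 0.34 (adjusted p = 0.0212). Cdc20, the activator of that complex at anaphase onset, was at 35.4, 29.8 and 55.5 FPKM in the control libraries, 7.05, 9.97 and 15.8 in PHZ BM HSCs and 28.6 and 46.8 in PHZ SP HSCs. It fell by 1.81 (adjusted p = 0.00997) and was 1.72 higher in PHZ SP HSCs (adjusted p = 0.0428). Pimreg, whose product takes part in the metaphase-to-anaphase transition, was at 20.99, 15.3 and 18.2 FPKM in control BM HSCs, 0.867, 1.43 and 3.36 in PHZ BM HSCs and 9.55 and 12.05 in PHZ SP HSCs. Its differences were -2.81 (adjusted p = 0.000881) and 2.12 (adjusted p = 0.0162). No PHZ BM HSC library reached the others in any of these 3. The checkpoint genes Mad2l1 (MAD2) and Ttk (the MPS1 kinase) fell as well, by 1.33 (adjusted p = 0.0192) and 1.46 (adjusted p = 0.0293).

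The 3 BUB genes were the exceptions among checkpoint genes. Bub1, a kinase of the outer kinetochore, was at 1.504, 1.295 and 3.04 FPKM in the control libraries, 0.0876, 0.44 and 1.47 in PHZ BM HSCs and 1.03 and 3.31 in PHZ SP HSCs. Here PHZ BM HSC replicate 3 lay within the controls (difference -0.86, adjusted p = 0.305). Bub1b, which encodes the checkpoint protein BUBR1, was at 3.28, 4.42 and 12.6 FPKM in control BM HSCs, 1.23, 1.44 and 3.38 in PHZ BM HSCs and 9.81 and 4.38 in PHZ SP HSCs. Control replicate 1 was just below PHZ BM HSC replicate 3, and the difference of -1.24 was not called (adjusted p = 0.176). Bub3, whose product recruits BUB1 and BUBR1 to kinetochores, was high in every library, at 25.7, 20.4 and 23.2 FPKM in the control libraries, 16.5, 19.1 and 18.2 in PHZ BM HSCs and 17.1 and 20.3 in PHZ SP HSCs. The 2 marrow groups did not overlap, yet the difference was only -0.34 ± 0.17 (adjusted p = 0.339), and that between the PHZ groups was 0.05 ± 0.19 (adjusted p = 0.937). The latter turned to -0.003 without PHZ BM HSC replicate 1 and to -0.06 without PHZ SP HSC replicate 2.

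**Figure D3:**
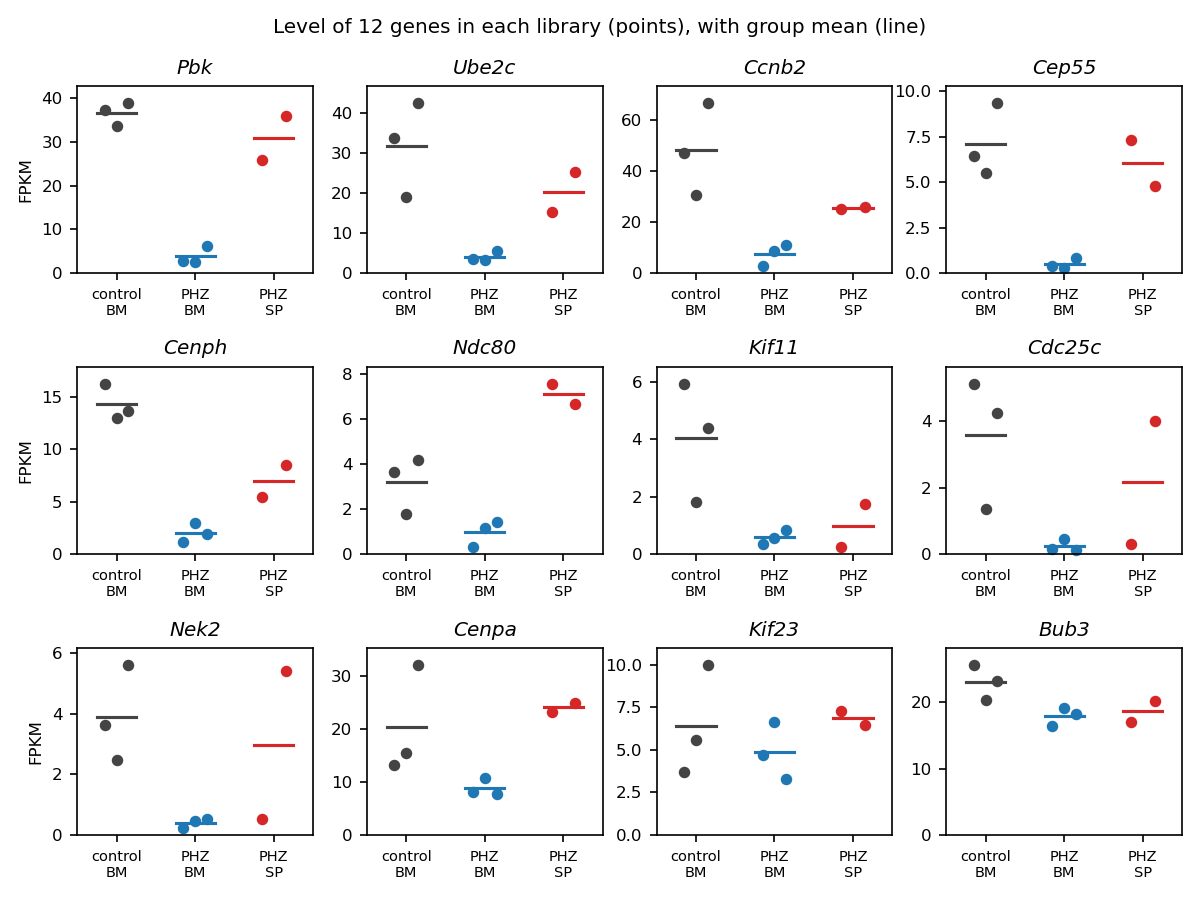
FPKM (y axis, from 0) of 12 members in each library (points), with the group mean (line), for control BM HSCs (grey), PHZ BM HSCs (blue) and PHZ SP HSCs (red). Pbk, Ube2c, Ccnb2, Cep55 and Cenph show PHZ BM HSCs below all other libraries, Ndc80 has its highest values in PHZ SP HSCs, Kif11, Cdc25c and Nek2 have 1 low PHZ SP HSC library, and Kif23 overlaps between groups.

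Kinetochore and centromere genes fell in PHZ BM HSCs in 6 of 9 members and rose in PHZ SP HSCs compared to PHZ BM HSCs in 5 of 9, and in all 9 the PHZ BM HSC libraries were below every other library. Cenph, an inner kinetochore protein, was at 16.2, 12.96 and 13.6 FPKM in control BM HSCs, 1.123, 2.98 and 1.95 in PHZ BM HSCs and 5.46 and 8.51 in PHZ SP HSCs. It fell by 2.38 ± 0.27 (adjusted p = 0.00127), and PHZ SP HSCs lay between the marrow groups without overlap with either (difference from PHZ BM HSCs 1.42, adjusted p = 0.0567). The NDC80 complex, which holds the microtubule end, consists of NDC80, NUF2, SPC24 and SPC25. Spc24 was at 20.9, 11.2 and 25.8 FPKM in the control libraries, 1.63, 2.896 and 4.33 in PHZ BM HSCs and 17.6 and 15.01 in PHZ SP HSCs. Its differences were -2.34 (adjusted p = 0.00368) and 2.19 (adjusted p = 0.0212). Spc25 was at 13.6, 6.42 and 13.4 FPKM in control BM HSCs, 0.987, 1.24 and 2.18 in PHZ BM HSCs and 7.88 and 6.87 in PHZ SP HSCs. Its differences were -2.26 (adjusted p = 0.00298) and 1.79 (adjusted p = 0.0339). Nuf2 fell by 1.57 (adjusted p = 0.00658) and rose by 1.54 (adjusted p = 0.0268). All 4 subunits were therefore called higher in PHZ SP HSCs than in PHZ BM HSCs, but Ndc80 itself was not called in PHZ BM HSCs compared to control BM HSCs.

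Ndc80 was at 3.65, 1.78 and 4.19 FPKM in the control libraries, 0.315, 1.14 and 1.42 in PHZ BM HSCs and 7.57 and 6.66 in PHZ SP HSCs. Its 2 PHZ SP HSC libraries were the highest of all 8. Its difference from PHZ BM HSCs was 2.10 ± 0.36 (adjusted p = 0.0233). Its difference in PHZ BM HSCs compared to control BM HSCs was -1.10 ± 0.32 (adjusted p = 0.101). Cenpa, the histone H3 variant that marks the centromere, was the most abundant of the group in PHZ BM HSCs, at 13.2, 15.5 and 32.03 FPKM in control BM HSCs, 8.14, 10.7 and 7.81 in PHZ BM HSCs and 23.2 and 24.96 in PHZ SP HSCs. Control replicate 3 was above the PHZ SP HSCs while the other controls were nearer to PHZ BM HSCs, and neither difference was called (-1.01, adjusted p = 0.0926, and 1.35, adjusted p = 0.0787). Cenpf, a large protein of the outer kinetochore, was low in all groups, at 1.56, 1.39 and 3.08 FPKM in the control libraries, 0.294, 0.6004 and 0.648 in PHZ BM HSCs and 1.08 and 1.83 in PHZ SP HSCs. Its difference was -0.96 (adjusted p = 0.127). The kinetochore motor gene Cenpe fell by 1.14 (adjusted p = 0.0491), close to the threshold, and the inner kinetochore gene Cenpk by 1.64 (adjusted p = 0.008096).

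The chromosome structure genes fell in 6 of 7 members. Top2a, the topoisomerase that untangles sister chromatids, was at 14.4, 11.3 and 21.8 FPKM in control BM HSCs, 2.81, 3.31 and 3.06 in PHZ BM HSCs and 8.21 and 13.7 in PHZ SP HSCs. It fell by 2.003 ± 0.27 (adjusted p = 0.00298) and was 1.52 ± 0.30 higher in PHZ SP HSCs than in PHZ BM HSCs (adjusted p = 0.0407). Mki67, which encodes the proliferation marker Ki-67 that coats mitotic chromosomes, was at 13.03, 7.64 and 11.2 FPKM in the control libraries, 1.58, 2.22 and 3.04 in PHZ BM HSCs and 6.28 and 8.195 in PHZ SP HSCs. It fell by 1.82 (adjusted p = 0.004501), and a difference of 1.34 between the PHZ groups was not called (adjusted p = 0.0598). Ncapd2, a condensin I subunit, was at 14.7, 10.9 and 15.2 FPKM in control BM HSCs, 3.302, 2.97 and 4.47 in PHZ BM HSCs and 5.64 and 9.06 in PHZ SP HSCs. Its differences were -1.67 (adjusted p = 0.00477) and 0.85 (adjusted p = 0.195). The 3 groups did not overlap in Ncapd2, PHZ SP HSCs being between the others. Of the condensin core genes, Smc2 fell by 1.22 (adjusted p = 0.00868) and rose by 1.57 in PHZ SP HSCs compared to PHZ BM HSCs (adjusted p = 0.0114), and Smc4 fell by 0.88 (adjusted p = 0.0486). Kif4, a kinesin on chromosome arms, fell by 1.27 (adjusted p = 0.032). The exception was Ncapg, another condensin I subunit, at 4.37, 1.21 and 3.37 FPKM in the control libraries, 0.243, 0.256 and 0.952 in PHZ BM HSCs and 2.0 and 3.13 in PHZ SP HSCs. Control replicate 2 was near PHZ BM HSC replicate 3 (difference -1.36, adjusted p = 0.0769).

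Spindle genes fell in 5 of 9 members. Nusap1, a microtubule-bundling protein, was at 17.4, 9.24 and 21.6 FPKM in control BM HSCs, 1.29, 1.99 and 2.34 in PHZ BM HSCs and 12.2 and 7.93 in PHZ SP HSCs. It fell by 2.51 ± 0.31 (adjusted p = 0.00188) and rose by 1.94 ± 0.35 (adjusted p = 0.0268) in PHZ SP HSCs compared to PHZ BM HSCs. Tpx2, which activates Aurora A at the spindle, was at 10.4, 4.85 and 12.2 FPKM in the control libraries, 0.632, 0.66 and 1.604 in PHZ BM HSCs and 4.97 and 11.1 in PHZ SP HSCs. Its differences were -2.32 (adjusted p = 0.00722) and 2.15 (adjusted p = 0.0369). Ckap2l, a spindle-associated protein, was at 13.1, 5.75 and 13.1 FPKM in control BM HSCs, 1.25, 1.83 and 3.6 in PHZ BM HSCs and 10.3 and 10.4 in PHZ SP HSCs. Its differences were -1.84 (adjusted p = 0.0151) and 1.88 (adjusted p = 0.04405). PHZ BM HSCs were below all other libraries in each of the 3. Kif2c, a kinesin that depolymerises microtubules, and Ckap2 fell without being called between the PHZ groups.

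Kif11, the kinesin that pushes the spindle poles apart, departed from the other members in PHZ SP HSCs, at 5.94, 1.82 and 4.39 FPKM in the control libraries, 0.358, 0.571 and 0.8501 in PHZ BM HSCs and 0.228 and 1.74 in PHZ SP HSCs. PHZ SP HSC replicate 1 was the lowest of all 8 libraries, the only member for which this library was, and replicate 2 was just below the lowest control. Its difference was -1.58 ± 0.39 in PHZ BM HSCs compared to control BM HSCs (adjusted p = 0.0606). It was 0.21 ± 0.44 between the PHZ groups (adjusted p = 0.883), which turned to -0.36 without PHZ SP HSC replicate 2. Hmmr, a spindle and hyaluronan-binding protein, was at 2.03, 1.77 and 4.45 FPKM in control BM HSCs, 0.228, 0.235 and 0.783 in PHZ BM HSCs and 1.61 and 2.76 in PHZ SP HSCs. There was no overlap between the marrow groups and a difference of -1.36 that was not called (adjusted p = 0.0554). Dlgap5, a spindle assembly factor, was low throughout, at 1.23, 1.61 and 2.86 FPKM in the control libraries, 0.715, 0.469 and 1.14 in PHZ BM HSCs and 0.539 and 2.15 in PHZ SP HSCs. Its difference was -0.69 (adjusted p = 0.343). The difference of 0.33 between the PHZ groups turned to -0.19 without PHZ SP HSC replicate 2. Spag5 (astrin) was at 2.801, 0.6096 and 5.16 FPKM in control BM HSCs, 0.102, 1.003 and 1.43 in PHZ BM HSCs and 1.21 and 4.32 in PHZ SP HSCs. Control replicate 2 was below 2 of the 3 PHZ BM HSC libraries, and the difference was -0.94 (adjusted p = 0.379).

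Cytokinesis genes had the fewest calls for their number, with 3 of 8 lower in PHZ BM HSCs and 1 of 8 higher in PHZ SP HSCs compared to PHZ BM HSCs; the difference between role groups was not tested. Cep55, needed for the last cut between daughter cells, was at 6.41, 5.48 and 9.34 FPKM in the control libraries, 0.394, 0.293 and 0.799 in PHZ BM HSCs and 7.296 and 4.797 in PHZ SP HSCs. It fell by 2.42 ± 0.27 (adjusted p = 0.00123) and rose by 2.23 ± 0.30 (adjusted p = 0.009605), and was under 1 FPKM in all 3 PHZ BM HSC libraries (12, 8 and 30 reads). Prc1, which bundles midzone microtubules, was at 3.49, 4.54 and 6.23 FPKM in control BM HSCs, 0.591, 0.582 and 1.26 in PHZ BM HSCs and 3.32 and 2.76 in PHZ SP HSCs. Its difference was -1.66 (adjusted p = 0.00813). Racgap1, a subunit of centralspindlin, was at 11.98, 5.999 and 11.4 FPKM in the control libraries, 2.45, 2.92 and 2.52 in PHZ BM HSCs and 7.16 and 7.996 in PHZ SP HSCs. It fell by 1.52 (adjusted p = 0.0103). In these 3 genes PHZ BM HSCs lay below every other library, while Kif23, the other subunit of centralspindlin, was at 3.68, 5.58 and 9.97 FPKM in control BM HSCs, 4.68, 6.65 and 3.297 in PHZ BM HSCs and 7.25 and 6.45 in PHZ SP HSCs. The groups overlapped in Kif23, with PHZ BM HSC replicate 2 above 2 controls, and its difference of -0.29 ± 0.32 (adjusted p = 0.709) turned to 0.04 without control replicate 3.

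The remaining cytokinesis genes were not called either. Ect2, the exchange factor that activates RhoA at the cleavage site, was at 0.703, 1.46 and 4.09 FPKM in the control libraries, 0.761, 0.751 and 0.373 in PHZ BM HSCs and 1.58 and 3.96 in PHZ SP HSCs. Control replicate 1 was as low as the PHZ BM HSCs (difference -0.78, adjusted p = 0.363). Anln (anillin, a scaffold of the contractile ring) was at 1.68, 2.58 and 3.92 FPKM in control BM HSCs, 0.868, 0.329 and 1.35 in PHZ BM HSCs and 2.82 and 4.01 in PHZ SP HSCs. Its difference was -1.004 (adjusted p = 0.126). Kif20a was at 3.58, 2.55 and 6.56 FPKM in the control libraries, 1.099, 0.515 and 1.41 in PHZ BM HSCs and 1.65 and 3.72 in PHZ SP HSCs. Kif20b was at 1.87, 2.67 and 4.101 FPKM in control BM HSCs, 0.479, 0.962 and 0.777 in PHZ BM HSCs and 1.26 and 3.47 in PHZ SP HSCs. These 2 kinesins, which act in late mitosis, had differences of -1.34 (adjusted p = 0.0722) and -1.13 (adjusted p = 0.104), and in both, as in Anln, the marrow groups did not overlap.

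**Figure D4:**
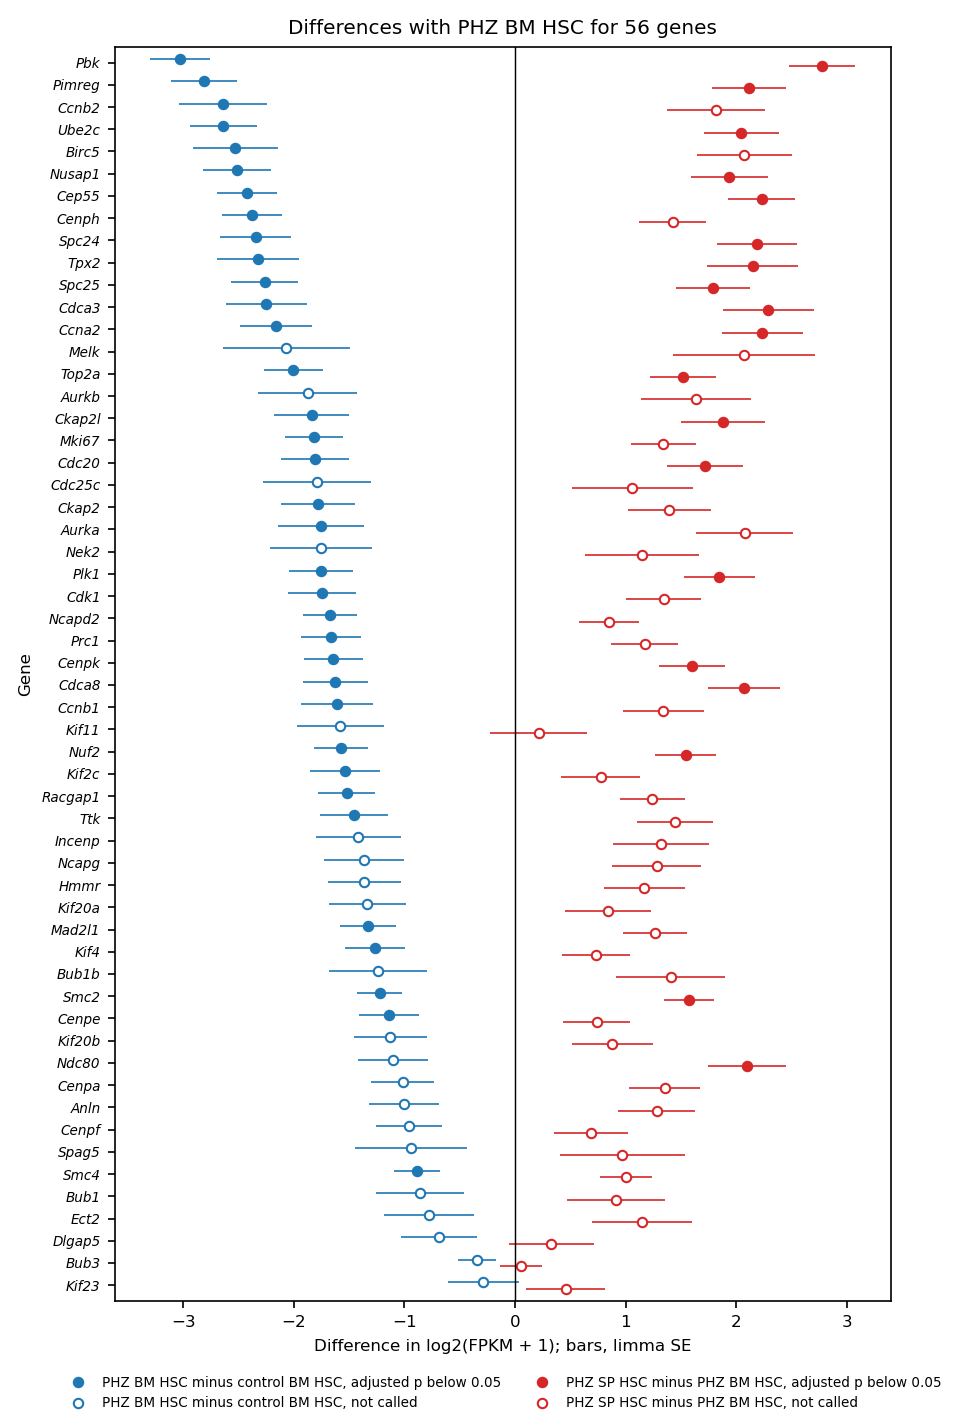
Difference in log2(FPKM + 1) with its limma SE (x axis) for each of the 56 genes (rows, sorted), for PHZ BM HSCs minus control BM HSCs (blue) and PHZ SP HSCs minus PHZ BM HSCs (red); filled points have an adjusted p below 0.05. All blue points lie left of 0 (-3.03 for Pbk to -0.29 for Kif23) and all red points right of it (0.05 for Bub3 to 2.78 for Pbk).

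Between PHZ SP HSCs and control BM HSCs no member was called. The median difference was -0.22 over the 56 members (-0.001 over all genes tested), with 17 members higher and 39 lower. This split moved with single libraries, to 26 and 30 without control replicate 3, 25 and 31 without PHZ SP HSC replicate 1 and 11 and 45 without control replicate 2. After scaling to total reads without Rn45s it was 14 and 42. Limma called 0 of 56 and voom 0 of 56, compared with 0.758% of all genes tested by limma (0.132% lower and 0.626% higher). In limma 4 members had an unadjusted p below 0.05, against 15.8% of all genes tested. These 4 were Kif11 (difference -1.37, 95% confidence interval -2.33 to -0.40), Cenph (-0.96, -1.62 to -0.29), Ncapd2 (-0.82, -1.42 to -0.23) and, as the only one higher in PHZ SP HSCs, Ndc80 (0.995, 0.22 to 1.77). The smallest adjusted p was 0.159. The interval of Cdk1 reached from -1.15 to 0.35, so a missed threshold does not show equal levels. PHZ SP HSCs did not overlap with the controls in 12 members, 2 of them higher (Ndc80 and Smc2) and 10 lower (Ccnb2, Bub3, Pimreg, Cenpe, Cenph, Ncapd2, Kif4, Kif11, Kif2c and Prc1), while 15.2% and 13.7% of all genes tested did so in these directions.

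Libraries of the same group differed in the overall level of the members. Control BM HSC replicate 3 had the highest value of all 8 libraries for 32 members, control replicate 1 for 15, PHZ SP HSC replicate 2 for 5 and PHZ SP HSC replicate 1 for 4. Control replicate 2 was below control replicate 3 for 53 of 56 members, with a median difference of 0.82, and below PHZ SP HSC replicate 2 for 41. Within the PHZ BM HSCs, replicate 1 was the lowest of all libraries for 35 members, replicate 2 for 14 and replicate 3 for 6, and replicate 1 was below replicate 3 for 49 members, with a median difference of 0.50. The 2 PHZ SP HSC libraries differed by a median of 0.32, replicate 1 being lower for 38 members. The 56 genes lie on 18 chromosomes, with at most 8 on any of them.

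Other genes of cell division were compared with the members through lists of genes that are not members. Among 34 other kinetochore and centromere genes, 9 fell in PHZ BM HSCs compared to control BM HSCs and 1 rose in PHZ SP HSCs compared to PHZ BM HSCs, with median differences of -0.96 and 0.62. Voom called 4 and 0 of this list. Of 30 tested genes of mitotic entry, the spindle and cytokinesis outside the set, 10 fell and 1 rose in the same comparisons (medians -0.93 and 0.62; 9 and 1 called by voom). Cohesin and other condensin genes fell in 4 of 14 and rose in 2 of 14 (medians -0.36 and 0.38; 4 and 2 called by voom). Of 19 subunits and regulators of the anaphase-promoting complex, limma and voom called 0 in either comparison, where limma called 2.74% and 0.978% of all genes tested. At an unadjusted p below 0.05 there were 3 and 2 of them, against 16.6% and 13.5% of all genes tested, and the medians were -0.03 and 0.17. The difference between lists was not tested. Genes of DNA replication and S phase fell in 17 of 50 and rose in 4 of 50 (medians -0.87 and 0.74), and voom called 17 and 2. Their mean log2(FPKM + 1) was 3.70 ± 0.249 (SD, n = 3) in control BM HSCs, 2.83 ± 0.219 (n = 3) in PHZ BM HSCs and 3.56 ± 0.096 (n = 2) in PHZ SP HSCs. Among 11 tested G1 cyclins, CDKs and CDK inhibitors limma called 0 in either comparison (3 and 0 at an unadjusted p below 0.05, and 1 and 0 called by voom). The list means were 3.69, 3.73 and 3.71. In PHZ SP HSCs compared to control BM HSCs, limma and voom called 0 of the 174 tested genes of these lists and of the regulators described next. Of all genes tested limma called 0.758%. At an unadjusted p below 0.05 there were 20 of the 174, against 15.8% of all genes tested.

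The 16 regulators that act on late cell cycle promoters were not called by limma. Foxm1, a transcription factor of G2/M genes, was at 0.80, 1.21 and 3.37 FPKM in the control libraries, 0.0994, 0.314 and 0.148 in PHZ BM HSCs and 0.202 and 1.804 in PHZ SP HSCs. Its difference in PHZ BM HSCs compared to control BM HSCs was -1.13 (adjusted p = 0.181). Mybl2 (B-MYB), which joins MuvB to activate these genes, was at 1.41, 0.669 and 1.797 FPKM in control BM HSCs, 0.391, 0.368 and 0.367 in PHZ BM HSCs and 0.463 and 2.97 in PHZ SP HSCs. Its difference was -0.70 (adjusted p = 0.377). Both were low in every group, and in both PHZ BM HSCs lay below all controls and the 2 PHZ SP HSC libraries stood on either side of the lowest control. Among MuvB subunits the differences were -0.78 for Lin9, 0.60 for Lin37, 0.79 for Lin52, 0.10 for Lin54, which recognises the CHR, and -0.67 for Rbbp4 (adjusted p = 0.0516, the smallest of the list). The DREAM partners that repress in quiescence had differences of -0.58 (Rbl1, p107), 0.05 (Rbl2, p130), 0.54 (E2f4), -0.61 (E2f5), -0.78 (Tfdp1) and -0.55 (Tfdp2). The NF-Y subunits had 0.18 (Nfya), -0.59 (Nfyb) and 0.37 (Nfyc). In all, 9 of 16 were lower and 7 higher in PHZ BM HSCs than in control BM HSCs, and the median was -0.56. Limma called 0 of 16 there and between the PHZ groups, compared with 2.74% and 0.978% of all genes tested. At an unadjusted p below 0.05 there were 8 and 5 of 16, against 16.6% and 13.5% of all genes tested. Voom called 1 (Rbbp4, adjusted p = 0.0169) and 0.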

How the data were processed

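RNA of sorted HSCs was converted to cDNA and amplified with SMART-Seq2, and libraries were made with Nextera XT. The authors mapped reads to mm10 with STAR (version 2.5.2b) and deposited FPKM per gene in 3 tables; the gene counter, the annotation and the handling of strand are not given in the sources used here, so that reads of overlapping or antisense genes cannot be told apart. Apart from the FPKM columns, the 3 tables held only a gene identifier and a symbol. Marrow columns carry the name WBM, whereas the sample titles name BM HSCs, and the titles were followed.

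Because FPKM values are whole multiples of 1 read, read counts were recovered from the deposited FPKM: 110442 of 110442 values above 0 came out whole within 0.001 reads, of 16729 genes, and for 1503 genes the counts are fixed only up to a common factor. FPKM of the 3 tables, which had been scaled separately, were rescaled with 1 set of median-of-ratios factors over the 8 libraries, which moved a library by at most 1.05%. Groups were compared with limma (version 3.58.1, R 4.3.3) on log2(FPKM + 1) with the trend and robust options, fitting all 8 libraries, for the 11347 of 15142 genes with at least 1 FPKM in at least 2 libraries. The test was two-sided, p-values were adjusted by the Benjamini-Hochberg method over all genes tested, and the threshold was 0.05. Intervals cover 95%.

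The members, role groups and lists were chosen with earlier results of these data known, so no test over a list was made. Any member could be named; values in every library are given for the 3 members with the smallest p in PHZ BM HSCs compared to control BM HSCs in each role group and for every member not called there. Genes outside the set are given as counts, apart from the transcription regulators. Alternatives were a pseudocount of 0.1 FPKM, no filter, 2 groups at a time, a replicate block, FPKM as deposited, scaling to total reads without Rn45s, voom on the recovered counts, limma without trend and robust, leaving out each library, and, chosen after seeing the data, averaging PHZ BM HSC replicates 1 and 2. Promoters came from RefSeq (GRCm38.p6).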

Additional observations from a re-analysis of the deposited data

How the results depend on the processing

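Of 56 members, 35 were called in PHZ BM HSCs compared to control BM HSCs and 19 in PHZ SP HSCs compared to PHZ BM HSCs. Across the alternatives with every library the first count stayed between 28 and 37, except 21 with PHZ BM HSC replicates 1 and 2 averaged (chosen after seeing the data), and the second was 20 to 24, except 6 without a filter, 10 by voom, 11 without trend and robust and 2 with the averaged pair. Leaving out 1 library gave 20 to 36 and 0 to 25 members called, and 0 in PHZ SP HSCs compared to control BM HSCs, as in every other alternative; without a PHZ SP HSC library, the lone one was assumed to vary like the other groups. All genes called, 311, 111 and 86 in the 3 comparisons, became 205, 62 and 46 without a filter, 204 and 63 (first 2) without trend and robust, 69 (second) by voom, 116, 25 and 36 with the averaged pair, and in the third 39 with a pseudocount of 0.1 and 44 with 2 groups only; leaving out 1 library gave 115 to 306, 6 to 146 and 14 to 83. Median differences of the members were -1.63, 1.37 and -0.22, and became -2.24 and 1.87 (first 2) with the pseudocount of 0.1 and -2.27 and 1.96 by voom, and the third -0.045 with the replicate block; leaving out 1 library gave -1.82 to -1.48, 1.23 to 1.61 and -0.42 to -0.04. With the pseudocount of 0.1 the mean log2 level of the members was 0.24, 0.64 and 1.16 in PHZ BM HSC replicates 1 to 3, 2.399 and 2.84 in PHZ SP HSC replicates 1 and 2 and 2.94, 2.407 and 3.32 in the controls, so that PHZ SP HSC replicate 1 was no longer within the range of the controls. In the first 2 comparisons directions turned for 4 members, each when 1 library was left out. Kif23 ranged from -0.57 to 0.042 in the first comparison (the latter without control replicate 3). In the second, Bub3 ranged from -0.062 (without PHZ SP HSC replicate 2) to 0.17 and was -0.0030 without PHZ BM HSC replicate 1, Dlgap5 ranged from -0.19 to 0.84 and Kif11 from -0.36 to 0.79, both being negative without PHZ SP HSC replicate 2. In the third, 17 members were higher and 39 lower, which became 25 and 31 with the replicate block or without PHZ SP HSC replicate 1, 26 and 30 without control replicate 3 and 11 and 45 without control replicate 2. The cause of these changes was not tested, beyond the smaller number of samples where libraries were left out or averaged. Libraries of different groups share replicate numbers. Deviations from the group mean of same-numbered libraries correlated at -0.008 to 0.060. The deviations of the 2 PHZ SP HSC libraries mirror each other, so these values cannot show whether marrow and splenic HSCs shared mice. The main fit treated all libraries as unpaired. A replicate block gave 33, 21 and 0 members called and 294, 112 and 73 genes called. Depth limits the rarest transcripts: Cdc25c, Bub1, Ttk, Melk and Spag5 had 4 to 6 reads in at least 1 PHZ BM HSC library.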
